A study of Rattus norvegicus with 9 samples.

Results

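The 9 genes described here act in mitophagy, the selective removal of mitochondria through autophagy, and were measured in rat superior mesenteric artery (SMA) after hemorrhage: the receptors Bnip3, Bnip3l, Fundc1 and Phb2, the PINK1 pathway genes Pink1, Tomm20 and Clec16a, and the adaptors Sqstm1 and Optn. Rows were found by gene symbol, from a set that was proposed with earlier results of these data known. All 9 were among the 37203 symbols of the count table and among the 15482 genes with enough counts to be tested. The SMA is the vessel that feeds most of the small intestine. The study asked how the pathways linked to mitochondria differ between phases of ischemic injury. The tissue came from Sprague-Dawley (SD) rats that were 8 weeks old and carried no engineered allele, in 3 groups of 3 libraries. One group was normal. In the Ischemia 1h and Ischemia 4h groups, rats under sodium pentobarbital had been bled through a catheter in the right femoral artery, and the vessel was taken 1 h or 4 h after the model was set up. Whether normal rats had anesthesia or a catheter is not given in the sources used here. Ischemia was therefore blood loss of the whole animal, not a clamp on the vessel. The series design counts 3 rats per group, while the study's methods speak of 3 individuals without saying whether per group. Rats were killed at the end of ischemia and the vessel was then taken, so the same rat could not serve every condition. The p-values measure the spread between these 9 libraries.

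Damaged mitochondria are marked for removal along a pair of routes. In the PINK1 route, the kinase PINK1 builds up on the outer membrane of depolarised mitochondria and sets off the building of a ubiquitin coat on them, and adaptors such as p62 (Sqstm1) and optineurin (Optn) link that coat to LC3 on the growing autophagosome. In the receptor route, membrane proteins such as BNIP3, NIX (Bnip3l) and FUNDC1 bind LC3 themselves, and Bnip3 is a textbook target of hypoxia-inducible factor (HIF). In smooth muscle cells of arteries both routes take part in mitochondrial turnover.

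Total counts ran from 13114273 to 15504240 per library, and the genes of the mitochondrial genome took 9.37% to 29.8% of them. Levels are in CPM, read counts divided by the TMM-scaled library size, and 1 CPM was 12.1 to 17.9 counts. Statements on overlap between groups refer to levels scaled in this way. Smooth muscle and endothelial markers were present in every library. The 10 smooth muscle genes summed to 11007 to 49025 CPM in normal, 12767 to 47096 CPM at 1 h and 24325 to 69851 CPM at 4 h, and Pecam1, an endothelial gene, lay between 112 and 293 CPM. Libraries also held very different amounts of nerve RNA. The 23 nerve genes, all of which passed the filter on low counts, summed to 51.7 to 818 CPM in normal, 1225 to 11446 CPM at 1 h and 65.3 to 11309 CPM at 4 h. Their defining gene Dbh, the enzyme that makes noradrenaline, had no count in normal replicate 2. Ischemia 1h replicates 1 and 3 and Ischemia 4h replicate 3 stood apart from the other 6 libraries, each above 10000 CPM, and values of the 9 genes are given with and without them where they bear on the result. In such whole-tissue libraries, fewer cells of a type and less RNA per cell cannot be told apart.

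The promoters of Bnip3, Pink1 and Tomm20 are shown because these genes stand for the hypoxia-responsive receptor, the kinase of the PINK1 route and the outer-membrane gene with the smallest p of the 9 at 4 h. Each run covers 250 bases before to 50 bases after the RefSeq start site on assembly GRCr8, read 5′ to 3′ on the gene's strand, and capitals mark the HIF cores ACGTG and GCGTG on either strand (CACGT and CACGC when read on the other).
Bnip3, chr1:203154913-203155212, minus strand: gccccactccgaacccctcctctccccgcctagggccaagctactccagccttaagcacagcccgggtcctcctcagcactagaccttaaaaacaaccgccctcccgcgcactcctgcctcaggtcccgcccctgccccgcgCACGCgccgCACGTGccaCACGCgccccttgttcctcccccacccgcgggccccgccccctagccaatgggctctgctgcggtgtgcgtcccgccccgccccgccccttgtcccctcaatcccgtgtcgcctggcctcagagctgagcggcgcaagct
Pink1, chr5:155825901-155826200, minus strand: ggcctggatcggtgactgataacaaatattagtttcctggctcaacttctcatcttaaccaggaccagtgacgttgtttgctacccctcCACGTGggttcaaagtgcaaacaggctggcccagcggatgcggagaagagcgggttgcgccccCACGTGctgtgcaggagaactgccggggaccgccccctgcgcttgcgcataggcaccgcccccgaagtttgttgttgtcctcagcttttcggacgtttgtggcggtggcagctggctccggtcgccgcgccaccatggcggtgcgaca
Tomm20, chr19:71832371-71832670, minus strand: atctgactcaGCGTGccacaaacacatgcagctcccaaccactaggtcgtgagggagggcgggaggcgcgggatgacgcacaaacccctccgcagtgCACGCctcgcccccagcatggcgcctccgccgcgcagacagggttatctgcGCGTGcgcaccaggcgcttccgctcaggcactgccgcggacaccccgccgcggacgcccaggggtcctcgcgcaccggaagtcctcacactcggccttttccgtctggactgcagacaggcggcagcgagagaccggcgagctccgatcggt
Of the 9 genes, 7 matched the RefSeq promoter table, and Bnip3l and Fundc1 did not. Bnip3 held 3 HIF-core sites, beginning at positions -108, -99 and -90 from the start. The middle one is the palindrome CACGTG, which reads as ACGTG on both strands and is also the E-box bound by other factors. Pink1 held 2 such palindromes, beginning at -161 and -98. Tomm20 held 3 sites, all GCGTG, beginning at -240, -153 and -102, and Optn held 3 GCGTG sites as well. Phb2 held 1 site, and Clec16a and Sqstm1 held none in this window. Among 33469 rat promoters of the same length, 19.3% hold ACGTG, 29.7% hold GCGTG, 41.6% hold either and 6.42% hold CACGTG. The NRF2 core TGACNNNGC, searched on both strands, was found in Tomm20 alone of the 7 and is in 12.1% of all promoters. These matches describe the letters of the window and are not measured binding sites.

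None of the 9 genes was called in any comparison by edgeR's quasi-likelihood F-test, where a call needs a Benjamini-Hochberg adjusted p under 0.05 over all 15482 genes and a fold change over 1.5. At 1 h, and with both ischemia times set against normal, the 4 genes with the smallest p-values were Bnip3, Tomm20, Bnip3l and Clec16a. At 4 h, Phb2 and Sqstm1 came before Clec16a. Bnip3 averaged 3.03-fold higher at 1 h and 1.98-fold higher at 4 h than in normal SMAs, Tomm20 1.31-fold and 1.60-fold higher, and Bnip3l 1.46-fold and 1.48-fold lower. At 1 h, 4 of the 9 genes had an unadjusted p under 0.05 and 5 had groups that did not overlap. Over all genes at 1 h, 0.0581% were called, 16.7% had such a p and 26.3% did not overlap. At 4 h the counts were 3 and 6 of the 9 genes, beside 0.0904% called, 12.4% with such a p and 18.7% not overlapping among all genes. With both ischemia times set against normal, 5 genes had such a p and 5 did not overlap, beside 0.426% called, 17.1% and 10.8% over all genes. These shares lay above the background, in a set of only 9 genes that was proposed with results of these data known. DESeq2 called Bnip3 at 1 h, Tomm20 at 4 h and Bnip3 over both times, and no other of the 9 genes in these comparisons. It called far more genes in all, 4.03% at 1 h, 3.38% at 4 h and 6.01% over both times, of those it gave an adjusted p.

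**Figure D1:**
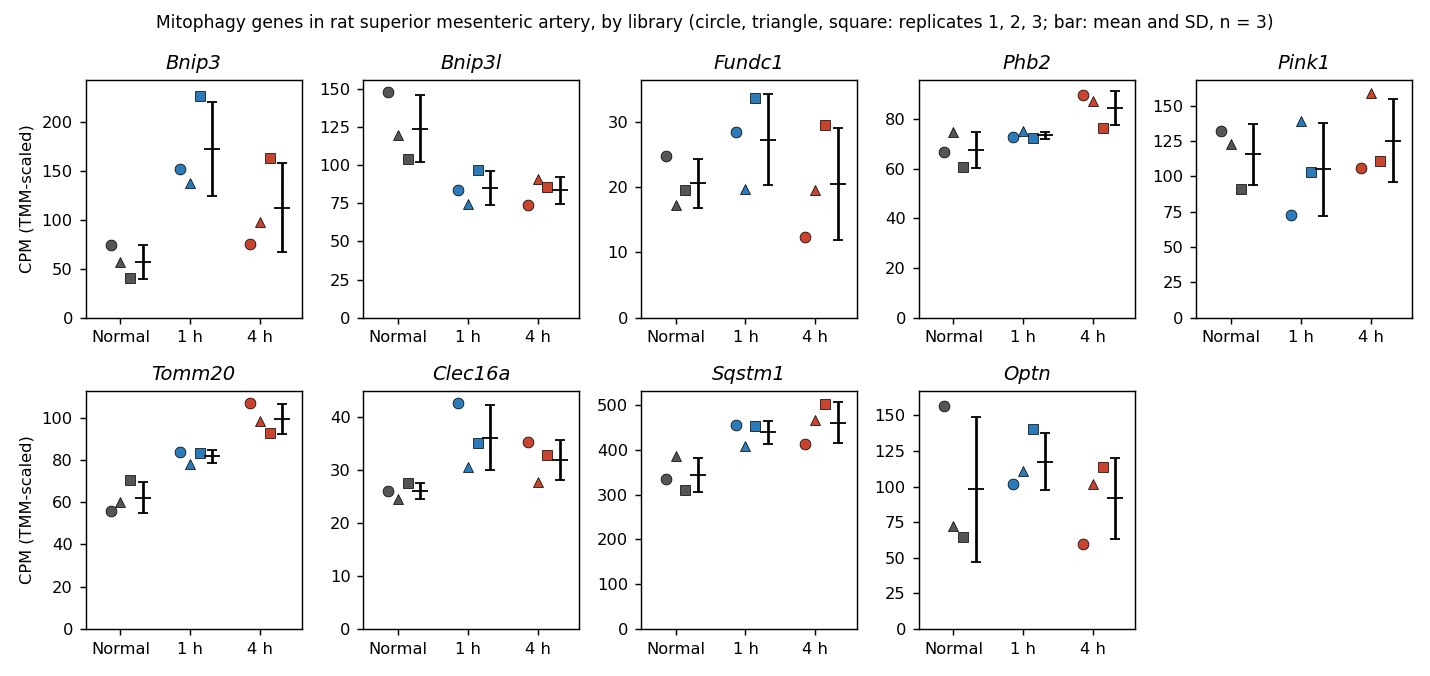
Level of each of the 9 genes in each library, in CPM scaled by TMM on a linear axis, with normal in grey, 1 h in blue and 4 h in red, and circle, triangle and square for replicates 1, 2 and 3. The bar beside each group is the mean and SD (n = 3). Bnip3 reached 137 to 227 CPM at 1 h against 40.0 to 74.0 CPM in normal, while Bnip3l was 74.7 to 97.0 CPM against 104 to 148 CPM.

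Bnip3 encodes an outer-membrane receptor that binds LC3 directly. It measured 74.0, 56.5 and 40.0 CPM in normal replicates 1 to 3. At 1 h it measured 152, 137 and 227 CPM, and at 4 h 75.6, 97.8 and 163 CPM. Every ischemic library was above every normal one, although the lowest at 4 h and the highest normal value lay close together. The group means were 56.8 ± 17.0, 172 ± 47.9 and 112 ± 45.6 CPM (SD, n = 3). The log2 fold change was 1.60 at 1 h (SE 0.36, edgeR quasi-likelihood adjusted p = 0.186) and 0.98 at 4 h (SE 0.36, adjusted p = 0.316). Leaving out each library in turn moved these values from 1.34 to 1.84 and from 0.61 to 1.22. Neither passed, but Bnip3 ranked 168th of 15482 genes by p at 1 h and 1174th at 4 h. Over both times it was 1.29 higher on the log2 scale (SE 0.32, adjusted p = 0.117). In DESeq2, Bnip3 rose at 1 h by 1.63 on the log2 scale (adjusted p = 0.00355) and over both times by 1.32 (adjusted p = 0.00496).

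The highest Bnip3 values of each ischemic group were in nerve-rich libraries. Without the 3 libraries above 10000 CPM of summed nerve genes, which left 1 library at 1 h, 2 at 4 h and 3 normal, the Bnip3 difference over both times was 0.97 on the log2 scale (SE 0.26, edgeR quasi-likelihood adjusted p = 0.271). At 4 h it went from 0.98 to 0.64 (SE 0.28, adjusted p = 0.453). The value at 1 h was 1.30 (SE 0.34, adjusted p = 0.432) and rested on a single library, assumed in the fit to vary like the other groups, as does every 1 h value given below without the nerve-rich libraries. With a nerve score, the mean log2 level of the nerve genes, as a covariate, the change over both times was 1.00 (SE 0.28, adjusted p = 0.135). Bnip3-ps1, by its name a pseudogene of Bnip3, had its own row at 4.36 to 7.78 CPM in normal, 11.4 to 18.9 CPM at 1 h and 6.70 to 12.2 CPM at 4 h. How reads that fit both rows were counted is not given in the sources used here, so Bnip3 levels carry an uncertainty of unknown size.

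Bnip3l encodes NIX, the close relative of BNIP3 best known for clearing mitochondria from maturing red cells. It measured 148, 120.2 and 104 CPM in normal replicates 1 to 3. After 1 h it stood at 83.8, 74.7 and 97.0 CPM, and at 4 h 73.9, 91.1 and 85.7 CPM. All 6 ischemic libraries were below all 3 normal ones, and the ischemic times overlapped each other. Means were 124 ± 22.2 CPM in normal, 85.2 ± 11.2 CPM at 1 h and 83.6 ± 8.79 CPM at 4 h (SD, n = 3). The log2 difference from normal was -0.54 at 1 h (SE 0.19, edgeR quasi-likelihood adjusted p = 0.261), -0.57 at 4 h (SE 0.19, adjusted p = 0.276) and -0.56 over both (SE 0.16, adjusted p = 0.150). Leaving out each library in turn gave -0.66 to -0.4 at 1 h and -0.68 to -0.43 at 4 h. The difference was smallest at both times without normal replicate 1, the library with the most Bnip3l. Without the 3 nerve-rich libraries the difference over both times was -0.64 (SE 0.20, adjusted p = 0.331). DESeq2 gave it an adjusted p of 0.0531 over both times.

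Because the 2 receptors are counted in the same library, their ratio does not depend on how libraries are scaled. Bnip3 had 0.500, 0.470 and 0.384 times the CPM of Bnip3l in normal replicates 1 to 3. At 1 h the ratios were 1.82, 1.84 and 2.34, and at 4 h 1.02, 1.07 and 1.91. The order of the 2 counts was thus opposite in all normal and all ischemic libraries, with 2 of the 4 h libraries near parity. The log2 ratio averaged -1.16 ± 0.20 in normal (SD, n = 3) and 0.67 ± 0.49 over both ischemia times (SD, n = 6). The difference of 1.83, or 3.55-fold, had an exact two-sided permutation p of 0.0119, the smallest that the 84 arrangements of 3 and 6 libraries allow. For 1 h alone the difference was 2.14 and for 4 h alone 1.51, each with an exact two-sided permutation p of 0.10, the smallest that 3 against 3 allows. The 4 h ratio was 0.63 lower than the 1 h ratio on the log2 scale, which did not pass (exact permutation p = 0.300). Leaving out the 3 nerve-rich libraries left a difference of 1.49 (exact permutation p = 0.10, again the smallest possible). The pair was chosen with earlier results of these data known, so its p-value is no independent evidence. A ratio shows unequal change of the 2 genes and not which of them moved. It also compares counts per gene without regard to gene length, so parity of counts is not parity of transcripts.

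**Figure D2:**
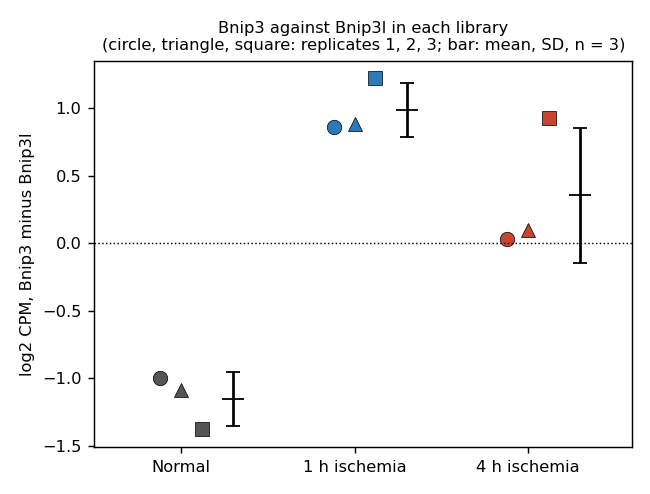
Log2 ratio of Bnip3 to Bnip3l CPM within each library by group, with circle, triangle and square for replicates 1, 2 and 3 and a bar for the mean and SD (n = 3). The dotted line marks equal CPM. Normal libraries lie between -1.38 and -1.0, 1 h libraries between 0.86 and 1.22, and 4 h libraries between 0.03 and 0.93.

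Fundc1 encodes an outer-membrane receptor that acts in hypoxic mitophagy after its dephosphorylation. It was low in SMAs, at 24.8, 17.4 and 19.65 CPM in normal replicates 1 to 3. Its 1 h values were 28.6, 19.8 and 33.7 CPM, and at 4 h 12.4, 19.65 and 29.6 CPM. The groups overlapped, and in each ischemic group the nerve-rich libraries were the higher ones. Its fitted log2 fold change was 0.41 at 1 h (SE 0.34, edgeR quasi-likelihood adjusted p = 0.523). Without the nerve-rich libraries it was -0.04 at 1 h (SE 0.36) and -0.34 at 4 h (SE 0.29), the former from 1 library.

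Phb2 encodes prohibitin 2, an inner-membrane scaffold protein that can bind LC3 once the outer membrane is broken. It varied least of the 9 genes, 1.48-fold between its lowest and highest library. It measured 66.9, 75.0 and 60.8 CPM in normal replicates 1 to 3, then 72.7, 75.1 and 72.6 CPM at 1 h. At 4 h it measured 89.7, 87.5 and 76.6 CPM, above every library of the other groups. The log2 fold change at 4 h was 0.32 (SE 0.14, edgeR quasi-likelihood adjusted p = 0.408), which did not pass. Scaled by library size only, where the median of all genes at 4 h moved to -0.15, the change was 0.13.

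Pink1 encodes the kinase that senses loss of membrane potential. It measured 133, 123 and 91.0 CPM in normal replicates 1 to 3. At 1 h it spread from 72.9 CPM in replicate 1 to 139 CPM in replicate 2, with 103 CPM in replicate 3. At 4 h it measured 106, 159 and 111 CPM. The groups overlapped throughout, with group means of 116 ± 21.8, 105 ± 33.2 and 125 ± 29.4 CPM (SD, n = 3). Its log2 fold change was -0.14 at 1 h and 0.12 at 4 h (SE 0.28 each, edgeR quasi-likelihood adjusted p = 0.812 and 0.892). With these errors, no difference of Pink1 was detectable, and its sign at either time depended on single libraries. Without the nerve-rich libraries its log2 fold change was 0.29 at 1 h, from 1 library, and 0.22 at 4 h (SE 0.27).

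Tomm20 encodes a receptor subunit of the TOM complex, the gate through which PINK1 enters healthy mitochondria and near which it accumulates in damaged ones. It measured 56.0, 60.3 and 70.3 CPM in normal replicates 1 to 3. At 1 h it measured 83.8, 78.2 and 83.3 CPM, and at 4 h 107, 98.5 and 93.0 CPM. In CPM scaled by TMM, the 3 groups did not overlap one another, and the order ran normal, 1 h, 4 h. The means were 62.2 ± 7.33, 81.7 ± 3.06 and 99.4 ± 6.98 CPM (SD, n = 3). The log2 fold change was 0.39 at 1 h (SE 0.15, edgeR quasi-likelihood adjusted p = 0.275), 0.68 at 4 h (SE 0.15, adjusted p = 0.125) and 0.54 over both (SE 0.13, adjusted p = 0.110). None passed, and Tomm20 ranked 197th of 15482 genes by p at 4 h. The step from 1 h to 4 h depended on scaling, with a log2 difference of 0.28, or 0.068 when scaled by library size only. Against normal, the latter scaling gave 0.44 at 1 h and 0.51 at 4 h. In DESeq2, Tomm20 rose at 4 h by 0.69 on the log2 scale (adjusted p = 0.00467). Over both times its DESeq2 adjusted p was 0.00848, at a log2 fold change of 0.56 that was under the fold threshold. Without the nerve-rich libraries the Tomm20 difference over both times was again 0.54 (SE 0.19, edgeR adjusted p = 0.373).

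Clec16a encodes an endosomal protein that works with the ubiquitin ligase Nrdp1 in the control of mitophagy. It measured 26.1, 24.5 and 27.5 CPM in normal replicates 1 to 3. The 1 h libraries held 42.7, 30.5 and 35.1 CPM, and at 4 h 35.2, 27.7 and 32.8 CPM. Every ischemic library was above every normal one, though Ischemia 4h replicate 2 (27.7 CPM) and normal replicate 3 (27.5 CPM) nearly met. On the log2 scale the difference was 0.47 at 1 h (SE 0.18, edgeR quasi-likelihood adjusted p = 0.283) and 0.30 at 4 h (SE 0.18, adjusted p = 0.543). Without the nerve-rich libraries it was 0.24 at 1 h (SE 0.26) and 0.29 at 4 h (SE 0.20). Scaled by library size only, the difference was 0.51 at 1 h and 0.13 at 4 h.

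Sqstm1 encodes p62, an adaptor that binds ubiquitin and LC3 and is itself degraded by autophagy. It measured 336, 386 and 311 CPM in normal replicates 1 to 3. Its 1 h values were 456, 408 and 453 CPM, and its 4 h values 413, 467 and 503 CPM. All ischemic libraries were above all normal ones. The fitted log2 differences were 0.35 at 1 h (SE 0.19, edgeR quasi-likelihood adjusted p = 0.347), 0.42 at 4 h (SE 0.19, adjusted p = 0.420) and 0.39 over both (SE 0.17, adjusted p = 0.291), none of which passed. Scaled by library size only, the difference was 0.38 at 1 h and 0.26 at 4 h.

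Optn encodes optineurin, the adaptor that TBK1 phosphorylates on ubiquitin-coated mitochondria. It measured 157, 72.6 and 64.9 CPM in normal replicates 1 to 3, so normal replicate 1 held more Optn than any ischemic library. Its 1 h libraries held 102, 111 and 140.2 CPM, and at 4 h 59.8, 102 and 114 CPM. The groups overlapped, and the log2 fold change was 0.26 at 1 h and -0.10 at 4 h (SE 0.38 each, edgeR quasi-likelihood adjusted p = 0.728 and 0.940). Without normal replicate 1 the fitted value was 0.77 at 1 h (SE 0.30, edgeR adjusted p = 0.286) and 0.41 at 4 h, and without normal replicate 3 it was 0.037 at 1 h. Without the nerve-rich libraries it was 0.21 at 1 h (SE 0.55) and -0.25 at 4 h (SE 0.44).

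**Figure D3:**
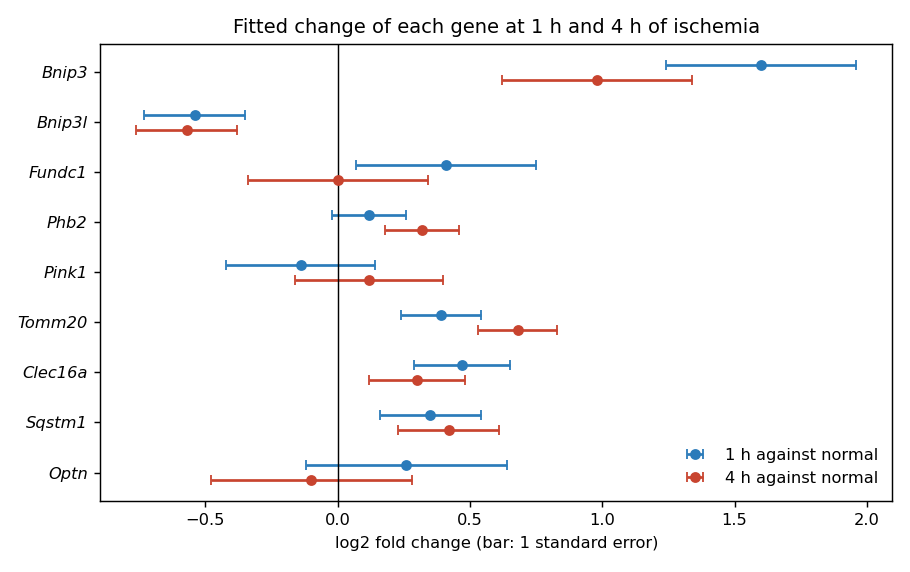
Fitted log2 fold change of each of the 9 genes against normal at 1 h (blue) and 4 h (red), with bars of 1 SE from the edgeR fit to all 9 libraries. Bnip3 lies farthest to the right at both times (1.60 and 0.98) and Bnip3l lies to the left at both (-0.54 and -0.57), while the bars of Pink1 span 0.28 to either side.

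In the comparison of the 2 ischemia times, no member of the set was called at 4 h against 1 h and none had an unadjusted p under 0.05. Without Ischemia 4h replicate 3, a nerve-rich library, 2 of the 9 had such a p. Bnip3 was at -0.99 (SE 0.34, edgeR unadjusted p = 0.0193, adjusted p = 0.175) and Fundc1 at -0.77 (SE 0.32, unadjusted p = 0.044, adjusted p = 0.231), neither of them called. Over all genes, those with an unadjusted p under 0.05 went from 400 of 15482 to 3295 of 15945. Without all 3 nerve-rich libraries the difference in Bnip3 was -0.66 (SE 0.37) and in Fundc1 -0.30 (SE 0.38). Over all 15482 genes, 0% were called by edgeR, 2.58% had an unadjusted p under 0.05 and 6.24% had groups that did not overlap. Phb2 and Tomm20 were the 2 members without overlap, with log2 differences of 0.20 (SE 0.14) and 0.28 (SE 0.15) in favour of 4 h, both with an edgeR quasi-likelihood adjusted p of 0.856. Scaled by library size only, the log2 differences of Phb2 and Tomm20 were -0.011 and 0.068. Bnip3 was lower at 4 h by a log2 value of -0.62 (SE 0.35, adjusted p = 0.856), with overlap between Ischemia 4h replicate 3 and the 1 h libraries. DESeq2 called none of the 9 here and 0% of all genes. In the test of the 3 groups together, none of the 9 was called by edgeR and 3 had an unadjusted p under 0.05 (Bnip3, Tomm20 and Bnip3l), beside 0.0388% called and 11.4% with such a p among all genes. DESeq2 called 2 of the 9 in that test, Bnip3 and Tomm20, and 4.08% of all genes. The 2 comparisons with normal share the same 3 normal libraries, so their values do not count as separate support.

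The median log2 fold change of the 9 genes was 0.35 at 1 h and 0.30 at 4 h, beside medians of -0.01 and 0.03 over all genes. Of the 9, 7 were above normal at 1 h and 6 at 4 h. These medians hide that the 9 genes went different ways, with Bnip3l below normal at both times. Pink1 and Optn differed from normal by less than their SE at both times.

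Some of the 9 genes moved with the nerve RNA of their library, as the plot against nerve genes shows. For Bnip3 and Fundc1, the 3 highest of the 6 ischemic libraries were the 3 nerve-rich ones, and Fundc1 was lowest in Ischemia 4h replicate 1, where nerve genes summed to 65.3 CPM. These 3 libraries also held little smooth muscle RNA, with Myh11 (smooth muscle myosin heavy chain) at 8723, 4826 and 9082 CPM against 17090 to 23515 CPM in the other 3 ischemic libraries. Normal replicate 1 had the least Myh11, 4693 CPM, with 818 CPM of nerve genes. Over the 9 libraries, Fundc1 and Optn each had a Pearson r of -0.85 with Myh11, beside 0.88 and 0.63 with the nerve score. Bnip3 had an r of 0.71 with the nerve score, -0.72 with the mitochondrial genome's share of counts and -0.52 with Myh11. When the nerve score entered the fit, the log2 difference at 1 h went from 0.41 to -0.14 for Fundc1 (SE 0.27) and from 0.26 to -0.10 for Optn (SE 0.40). That score was 8.03, 4.9 and 8.08 in the 1 h libraries and 4.46, -0.64 and 3.62 in normal, without overlap. Nerve content and ischemia therefore cannot be told apart at 1 h by this fit. Other ways in which tissue make-up could enter these differences were not tested.

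**Figure D4:**
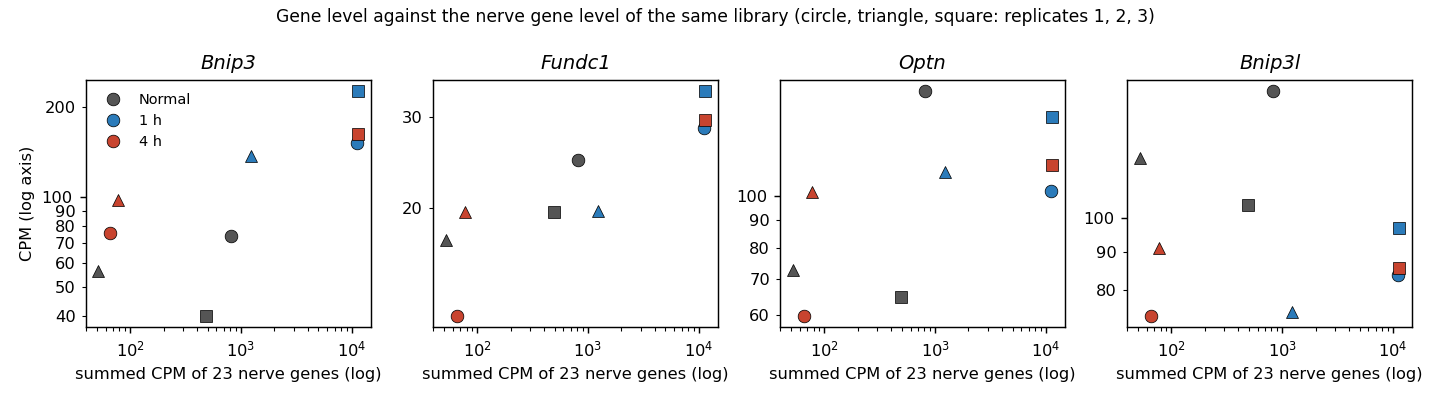
Level of Bnip3, Fundc1, Optn and Bnip3l in CPM against the summed CPM of 23 nerve genes in the same library, both on log axes, with grey, blue and red for normal, 1 h and 4 h and circle, triangle and square for replicates 1, 2 and 3. The 3 libraries above 10000 CPM of nerve genes hold the highest ischemic values of Bnip3 and Fundc1, while Optn and Bnip3l show no such order.

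Beyond the 9 genes, 87 further genes in 8 lists of the same machinery were examined, of which 84 were tested. edgeR called none of them in any comparison. At 1 h, 17 of the 84 had an unadjusted p under 0.05, 15 higher and 2 lower than normal, beside 16.7% of all genes. At 4 h, 10 had one, 8 higher and 2 lower, beside 12.4% of all genes. Over both times the count was 17, 13 higher and 4 lower, beside the 17.1% of all genes. The counts of single lists below are over both times and stand beside that same 17.1%. DESeq2 called 4 at 1 h, 5 at 4 h and 6 over both times, where it called 4.03%, 3.38% and 6.01% of all genes. The 3 genes of each list with the smallest p over both times are named, with values from the edgeR fit in that comparison. Without the 3 nerve-rich libraries edgeR again called none of the tested pathway genes, and over both times the log2 difference went from 0.81 to 0.38 for Tomm70a, from -0.71 to -0.37 for Atg14, from 0.51 to 0.25 for Vcp, from 0.68 to 0.43 for Ube2n and from 2.08 to 2.44 for Ddit4.

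The LC3 family, the small proteins that receptors and adaptors bind, and the genes that start autophagy gave 4 of 14 with an unadjusted p under 0.05. Map1lc3b, which encodes LC3B, measured 175, 172 and 157 CPM in normal, 231, 267 and 288 CPM at 1 h and 216, 261 and 287 CPM at 4 h, with no overlap between normal and ischemic libraries. Its log2 fold change was 0.62 (SE 0.16, edgeR adjusted p = 0.126). Gabarapl2, another LC3 relative, differed by 0.53 (SE 0.15, adjusted p = 0.146) with no overlap. Atg14, a subunit of the lipid kinase that starts autophagosomes, was lower at -0.71 (SE 0.26, adjusted p = 0.233).

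Among the regulators of the PINK1 route, 3 of 15 had an unadjusted p under 0.05, all higher. Usp15, a deubiquitinase that opposes mitophagy, differed by 0.44 (SE 0.14, edgeR adjusted p = 0.183). Ube2n, a ubiquitin-conjugating enzyme, differed by 0.68 (SE 0.24, adjusted p = 0.217). Vcp, the segregase that pulls ubiquitinated proteins from membranes, differed by 0.51 (SE 0.20, adjusted p = 0.255), at 180 to 214 CPM in normal and 225 to 352 CPM in ischemic libraries.

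Of the other receptors and adaptors, 1 of the 9 tested had an unadjusted p under 0.05, the adaptor gene Tax1bp1 (0.44, SE 0.19, edgeR adjusted p = 0.282). Tollip, an endosomal adaptor, was at 0.33 (SE 0.17) and Fundc2, the relative of Fundc1, at -0.36 (SE 0.23). Of the 7 outer-membrane substrates of ubiquitin ligases, 1 had such a p, Rhot2, a Miro protein that ties mitochondria to motors, at -0.36 (SE 0.15, adjusted p = 0.279) and without overlap. Mfn1, a fusion protein, was at -0.35 (SE 0.18) and Vdac3, a pore protein, at 0.32 (SE 0.17).

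The rest of the TOM complex did not follow Tomm20 as a group. Its 7 other genes, of which 1 had an unadjusted p under 0.05, had a median log2 fold change of -0.05 over both times, from -0.18 to 0.81. That gene was Tomm70a, the other main receptor subunit (0.81, SE 0.31, edgeR adjusted p = 0.247), but at 4 h it stood at 24.6, 24.8 and 58.6 CPM, high in the nerve-rich library only. The small subunit genes Tomm5 and Tomm6 were at -0.17 (SE 0.18) and -0.18 (SE 0.21). Of the 5 partners of the prohibitins on the inner membrane, none had an unadjusted p under 0.05, with Phb at 0.14 (SE 0.16), Afg3l2 at 0.10 (SE 0.14) and Stoml2 at -0.11 (SE 0.20).

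Transcription factors known to act on the 9 genes gave 1 of 9 with an unadjusted p under 0.05. This was Foxo3, a forkhead factor that drives autophagy genes and Bnip3 in muscle, at 23.9, 35.7 and 20.3 CPM in normal, 53.6, 76.1 and 59.7 CPM at 1 h and 55.3, 68.4 and 79.4 CPM at 4 h. All 6 ischemic libraries exceeded all normal ones, at a log2 fold change of 1.30 (SE 0.24, edgeR adjusted p = 0.0641), short of the threshold. Atf4, a stress-response factor, was at 0.50 (SE 0.24) and Foxo1 at 0.87 (SE 0.41). The hypoxia targets gave 6 of 18 with such a p, 4 higher and 2 lower. The 2 lower were Ankrd37 at -1.76 (SE 0.49, edgeR adjusted p = 0.141) and Pdk1 at -0.33 (SE 0.13, adjusted p = 0.256), the latter without overlap. Ddit4, an inhibitor of mTOR signalling, was at 2.08 (SE 0.41, edgeR adjusted p = 0.0753), Vegfa, the endothelial growth factor, at 1.01 (SE 0.22, adjusted p = 0.0838), and Adm, the vasodilator adrenomedullin, at 1.92 (SE 0.45, adjusted p = 0.0978). In the nerve-rich library of the 4 h group, Ddit4 and Vegfa were the lowest of the 3 (185 and 145 CPM), while at 1 h Vegfa was highest in the 2 nerve-rich libraries (154 and 128 CPM against 93.6 CPM). DESeq2 called Ddit4, Vegfa, Adm, Foxo3 and Map1lc3b as higher over both times, and also called Ankrd37.

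**Figure D5:**
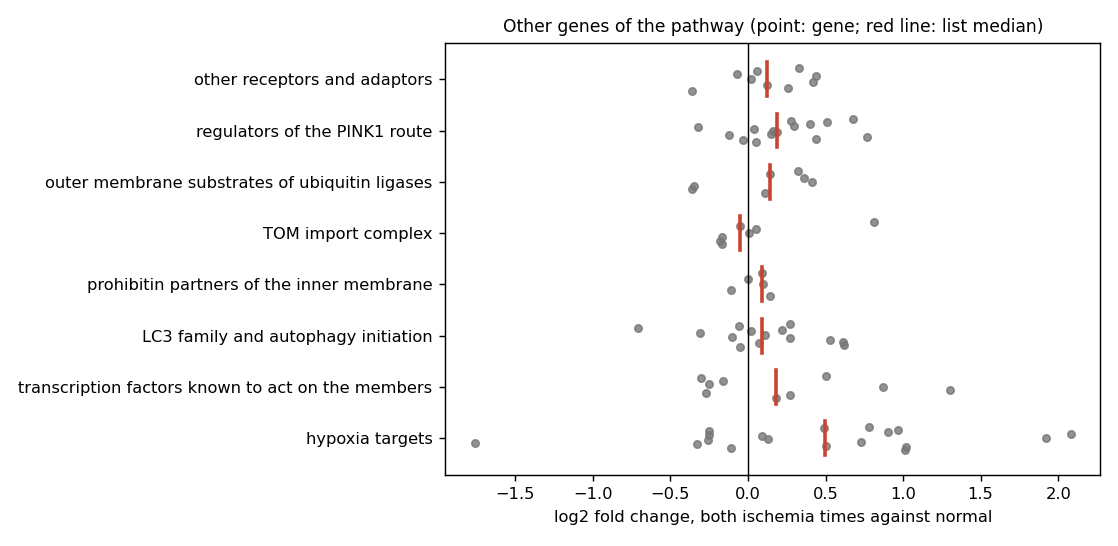
Log2 fold change over both ischemia times against normal of the 84 tested pathway genes, 1 point per gene in 8 lists, with a red line at each list's median. The hypoxia targets have the highest median (0.50) and spread from -1.76 to 2.08, and the TOM complex genes centre on -0.05.

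Among 10412 genes with a mean of at least 5 CPM, those whose log2 CPM ran most like Bnip3 over the 9 libraries were Fxr1 (Pearson r = 0.975), Stx12 (r = 0.964) and Gabarapl1 (r = 0.957). Gabarapl1, a member of the LC3 family, measured 220, 234 and 179 CPM in normal, 352, 286 and 412 CPM at 1 h and 224, 268 and 396 CPM at 4 h. Most like Bnip3l were Neil1 (r = 0.966), Cnnm3 (r = 0.961) and Mum1 (r = 0.958), and most like Pink1 were Man2a2 (r = 0.941), Tor1aip1 (r = 0.931) and Pcm1 (r = 0.930). These are descriptions over 9 libraries that share groups, nerve content and depth, chosen as the highest among all genes compared.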

How the data were processed

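RNA from 9 rat SMA libraries was sequenced, and the authors deposited raw counts per gene symbol. HISAT2 is named in the submitters' processing notes; its role and version, the counting program, genome build, annotation and strand setting are not given in the sources used here. The study's methods describe Agilent microarrays, which would not give such a table, so how its counts were made is known only in part. Of 37203 symbols, 13156 had no count. Every column matched the title of 1 sample, and no library was a copy of another.

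Counts were analysed in R 4.3.3 with edgeR 4.0.16 (limma 3.58.1): filterByExpr, TMM scaling and the quasi-likelihood F-test on all 9 libraries with group as the only term. Adjustment of p-values followed Benjamini and Hochberg over all 15482 genes, and a call needed an adjusted p under 0.05 and a fold change over 1.5. The SE is the log2 fold change divided by the square root of F. Log2 CPM used a prior count of 2. The common biological coefficient of variation was 51.6%. DESeq2 1.42.0, other scalings, filters, libraries and a nerve covariate were alternatives. The scripts were tested on simulated data.

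The 9 genes and all lists were chosen with earlier results of these data known. All 9 genes are named, as are the 3 genes of each list with the smallest p over both ischemia times and the 3 genes most like Bnip3, Bnip3l and Pink1. One gene that the same rules cover is not reported here. Genes singled out beyond this rule (Gabarapl1 as an example, Dbh, Pecam1, Myh11, Ankrd37, Pdk1 and Bnip3-ps1) were chosen after their values were seen. Older symbols (Tomm70a, Phb, Gbas, March5) were matched by hand. Promoters came from RefSeq on GRCr8, a build that may differ from that of the counts.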

Additional observations from a re-analysis of the deposited data

How the results depend on the processing

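Leaving out each library in turn, the difference in the log2 ratio of Bnip3 to Bnip3l ranged from 1.71 to 1.95 (exact permutation p = 0.0179 to 0.0357). Each p was the smallest that the remaining libraries allowed, so its range reflects only which group lost a library. Without the 3 nerve-rich libraries, an alternative chosen after seeing the data, the difference was 1.49 and its p could not reach the threshold. edgeR called none of the 9 genes under any alternative. DESeq2 called 1 of them at 1 h, 1 at 4 h, 1 over both times and 2 over the 3 groups, and 4, 5, 6 and 6 of the further pathway genes; the cause was not tested. Leaving out 1 library was done in edgeR, which called none of the further pathway genes with all 9 libraries. It gave 0 to 1 called over both times, the 1 being Adm without Ischemia 4h replicate 1. Of 603 alternative values of the 9 genes, 562 kept direction and side of the threshold, 3 passed it (Bnip3 at 1 h and over both times and Tomm20 at 4 h, all in DESeq2) and 38 changed sign.

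The nerve score of the 1 h libraries did not overlap that of normal ones, so its fit cannot separate nerve content from ischemia there. With the nerve covariate, the log2 fold change at 1 h was -0.14 for Fundc1, 0.056 for Pink1 and -0.10 for Optn. Over both times it was -0.12 for Fundc1, 0.093 for Pink1 and -0.11 for Optn. At 4 h against 1 h it was 0.065 for Bnip3l and 0.036 for Fundc1. Fundc1 at 4 h was 0.016 with RLE size factors, 0.018 in DESeq2, 0.00082 with no filter and 0.0045 with only the groups compared. With library size only, Pink1 at 4 h was -0.088, Phb2 and Sqstm1 at 4 h against 1 h were -0.011 and -0.12, and Optn over both times was -0.017. Pink1 over both times was 0.013 with RLE and 0.015 in DESeq2. Leaving out 1 library, Optn ran from 0.037 to 0.77 at 1 h and Pink1 ran from -0.39 to 0.068 at 1 h, -0.09 to 0.23 at 4 h and -0.16 to 0.099 over both. Optn ran from -0.32 to 0.41 at 4 h and -0.14 to 0.59 over both, Fundc1 from -0.36 to 0.23 at 4 h, and Bnip3l from -0.11 to 0.11 at 4 h against 1 h.

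Correlations of deviations from the group mean ran from -0.65 to 0.66 over 9 same-numbered pairs, against -0.71 to 0.65 over 18 pairs of other numbers. These ranges cannot decide whether same-numbered libraries were paired, because the pairs share libraries. The replicate numbers are not said to pair rats and were not read as pairing. With the replicate number as a block, 0 of the 9 genes were called in each comparison, and 7, 7, 0 and 19 of all genes were called in the 4 comparisons, where the fit without it called 9, 14, 0 and 66.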

Other observations

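The remaining marker lists, each of 10 genes, varied between libraries as well. Adipocyte genes summed to 401 to 2547 CPM in normal, 1008 to 2494 CPM at 1 h and 458 to 1197 CPM at 4 h. Ucp1, the brown fat uncoupling protein, was at 85.1 CPM in Ischemia 1h replicate 1 and 36.6 CPM in Ischemia 4h replicate 3 and had no count in normal libraries. Endothelial genes summed to 713 to 1626 CPM in normal, 690 to 1146 CPM at 1 h and 603 to 965 CPM at 4 h. Macrophage genes stayed between 41.6 and 236 CPM, red cell genes between 64.9 and 396 CPM, skeletal muscle genes between 27.8 and 205 CPM and exocrine pancreas genes between 5.2 and 186 CPM. Ankrd37, a hypoxia target, differed from Ddit4, Vegfa and Adm in sign, at a log2 fold change of -1.76 over both times (SE 0.49, edgeR quasi-likelihood adjusted p = 0.141), and was among the 6 genes that DESeq2 called there.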
